A study of Mus musculus with 36 samples.

Results

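The livers of 3 C3 sires and 3 C3 dams were compared by whole-genome bisulfite sequencing, in which unmethylated cytosines are converted and methylated cytosines are read as C. These 6 animals were every C3 parent among the 24 liver methylomes of a series of 36 samples. They were taken by strain and sex as the labels give them. The comparison was made on the 19 autosomes, first in fixed windows of 500 bp that held at least 5 CpGs and at least 30 counts in every animal, and then CpG by CpG. C3 is the inbred strain C3H/HeN. The C3 sires had been mated with females of the inbred strain C57BL/6N (B6), and the C3 dams with B6 males, at the age of 10 weeks. The pups of the dams were weaned at week 16, and every animal was killed at week 20. The dams had therefore borne and nursed pups, so that sex and the history of breeding cannot be told apart between C3 sires and C3 dams. The 3 B6 sires and 3 B6 dams, bred in the same way in the reciprocal crosses, were kept out of the C3 contrast, though not out of the estimate of the spread, and served as a second set. The 12 F1 animals (3 sons and 3 daughters each of B6C3F1, from B6 dams, and of C3B6F1, from C3 dams) served as a further set, in which the daughters were virgins of the same age. The DNA came from whole liver, so that a change in the share of a cell type and a change within a cell type cannot be told apart.

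CpG methylation in mammals is laid down and copied by DNA methyltransferases, and stretches of low methylation often mark promoters and distal regulatory elements that are in use. The mouse liver is strongly dimorphic. Growth hormone reaches it in pulses in males and almost continuously in females, the transcription factor STAT5 relays that difference, and factors such as BCL6 in males and CUX2 in females reinforce it. Pregnancy and nursing bring prolactin and placental hormones to the same organ.

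The depth of the C3 animals lay between 365740739 and 576124417 counts on autosomal CpGs, or 19.4 to 30.5 counts per CpG, and dam 3 was the shallowest of the 24 animals. The ratio of depth on chromosome X to that on autosomes was 0.518, 0.494 and 0.492 in the C3 sires and 0.976, 0.977 and 0.988 in the C3 dams, which fits the labelled sexes. One F1 son, C3B6F1 male 1, stood apart at 0.5999, where the other F1 sons lay between 0.492 and 0.521 and the F1 daughters between 0.897 and 0.963. Whether this library held DNA of a female animal was not tested, so that its values as a son are in doubt. It enters no methylation level of C3, but it does enter the filter on counts and the estimate of the spread. The part of this library in the F1 values was tested for their counts, shares and medians, which are given without it as well, and not for single windows. At the start sites of marker genes the sexes differed by at most 2.63 points per cell type. The markers of hepatocytes were at 22.8% ± 2.44 (SD, n = 3) in sires and 22.04% ± 1.01 in dams, those of Kupffer cells at 90.2% ± 1.46 and 87.5% ± 2.13, those of sinusoidal endothelium at 64.7% ± 2.21 and 65.7% ± 0.474, those of stellate cells at 34.2% ± 1.00 and 35.3% ± 0.960, those of leukocytes at 85.2% ± 0.448 and 85.2% ± 1.63, and those of cholangiocytes at 25.9% ± 1.65 and 25.8% ± 1.393. The Kupffer cell values rest on 2 of the 6 genes of that list, Clec4f and Csf1r, since the others had no tested window. None (0) of the marker windows was called in any of these 6 lists, beside 0.154% of all windows tested. In so few windows 0 calls say little about the shares of the cell types.

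Methylation summed over all autosomal CpGs did not separate C3 sires from C3 dams. It was 77.1%, 77.3% and 77.0% in the 3 sires and 76.3%, 77.1% and 77.0% in the 3 dams. The groups overlapped, with means of 77.1% ± 0.171 and 76.8% ± 0.452 (SD, n = 3) and a two-sided exact permutation p of 0.500, where 3 against 3 cannot go below 0.100. Averaged over CpGs instead, the 3 sires lay above the 3 dams, by 0.777 percentage points (exact permutation p = 0.100). The same held for the sum over CpGs with at least 10 reads in each C3 parent, by 0.603 points (exact permutation p = 0.100). In B6 the sum over all autosomal CpGs was between 76.56 and 76.97% in sires and between 75.05 and 75.73% in dams.

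Some single windows lay much further apart. Of 1456902 windows tested, 2245 (0.154%) were called different between C3 sires and C3 dams, by limma at a Benjamini-Hochberg adjusted p below 0.05 with group means at least 20 percentage points apart. More were higher in dams than in sires, with 1455 (0.0999%) against 790 (0.0542%). The median difference of sires minus dams was -25.7 percentage points in the former and 24.02 in the latter, beside 0.552 over all windows. All 3 animals of the higher group lay above all 3 of the lower group in 1452 of the 1455 and in 788 of the 790, a description only, since the call used these values. Over all windows tested, 4.44% had every dam above every sire and 9.44% every sire above every dam. Over the windows higher in dams, the sires averaged 40.5%, 41.8% and 45.9% and the dams 70.9%, 70.2% and 71.9%. Sire 3 was the highest sire in 913 of these 1455 windows (62.7%). Over the windows higher in sires, the sires averaged 68.0%, 68.4% and 68.4% and the dams 40.6%, 43.0% and 42.0%. Leaving out any 1 of the 6 animals gave between 2148 and 2566 called windows.

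Of the 12 windows per direction with the largest differences, 3 each are shown first as sequence, because they carry the patterns described below. They were chosen with their values known and skip some windows that lay further apart. Each is a part of its window on the plus strand of mm9, 5′ to 3′, and capitals mark the CpGs of the deposited table. The stretches of Nkx1-1, Cux2, Mtap6 and Pik3c2g hold 5, 4, 5 and 4 of the 7, 5, 6 and 5 CpGs of their windows. The first 3 were higher in C3 sires, near Nkx1-1 (chr5:33800571-33800728), in Cux2 (chr5:122451123-122451244) and in Mtap6 (chr7:106453733-106453929). The last 3 were higher in C3 dams, in Pik3c2g (chr6:139801216-139801345), in Elovl3 (chr19:46207079-46207303) and near Gpr12 (chr5:147409124-147409349).
Nkx1-1: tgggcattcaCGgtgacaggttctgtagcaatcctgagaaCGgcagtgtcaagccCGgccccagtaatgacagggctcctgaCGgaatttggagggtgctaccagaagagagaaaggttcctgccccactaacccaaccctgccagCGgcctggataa
Cux2: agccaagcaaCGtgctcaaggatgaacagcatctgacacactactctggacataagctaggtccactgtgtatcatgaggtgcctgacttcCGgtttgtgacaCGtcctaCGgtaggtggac
Mtap6: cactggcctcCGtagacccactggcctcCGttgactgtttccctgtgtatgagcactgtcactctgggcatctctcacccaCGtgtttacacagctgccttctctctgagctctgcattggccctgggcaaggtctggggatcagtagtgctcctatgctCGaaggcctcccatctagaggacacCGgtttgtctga
Pik3c2g: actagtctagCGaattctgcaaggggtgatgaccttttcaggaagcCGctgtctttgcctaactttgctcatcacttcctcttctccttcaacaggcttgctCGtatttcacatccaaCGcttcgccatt
Elovl3: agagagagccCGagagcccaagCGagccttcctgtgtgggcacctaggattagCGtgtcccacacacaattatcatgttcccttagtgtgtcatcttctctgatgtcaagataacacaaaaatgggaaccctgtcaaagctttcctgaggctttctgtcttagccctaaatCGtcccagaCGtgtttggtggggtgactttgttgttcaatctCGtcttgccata
Gpr12: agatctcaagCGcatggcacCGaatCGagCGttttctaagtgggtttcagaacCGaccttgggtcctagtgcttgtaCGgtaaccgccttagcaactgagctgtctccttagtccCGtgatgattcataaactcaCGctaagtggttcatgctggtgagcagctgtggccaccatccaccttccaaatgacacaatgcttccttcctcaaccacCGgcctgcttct

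Near the homeobox gene Nkx1-1 lay the window with the largest excess in sires, an intergenic stretch of 7 CpGs at chr5:33800501-33801000, 23876 bp from the nearest start site. It was methylated at 85.4%, 83.6% and 84.9% in the C3 sires and at 15.3%, 20.2% and 12.2% in the C3 dams. The groups lay far apart, by 68.8 points, and by 4.80 ± 0.30 (SE) in log2 ratio of methylated to unmethylated counts (adjusted p = 1.22e-11, limma). The same held in the B6 parents, at 78.5% ± 1.31 in sires and 22.6% ± 7.92 in dams (SD, n = 3).

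Cux2 encodes a homeobox factor that is expressed in female and not in male mouse liver. Its window with the largest excess in sires, at chr5:122451001-122451500, lay in an intron, 853 bp from the start site of a coding transcript. The 3 sires were at 71.9%, 82.1% and 72.6% and the 3 dams at 17.5%, 15.2% and 15.5%. The groups lay 59.4 points apart (adjusted p = 1.59e-07, limma). Of 377 windows tested in Cux2 and within 10 kb of it, 9 were called, all higher in sires, beside 0.0542% of all windows tested. The F1 daughters were also low, at 27.0%, 20.3% and 22.7% in B6C3F1 and 26.7%, 20.5% and 35.2% in C3B6F1. All 6 lay above every C3 dam, but the C3 dams had helped to choose this window. The B6 dams, which had not, were at 22.6% ± 5.21 (SD, n = 3) and overlapped the daughters. The B6C3F1 sons were at 80.4% ± 1.15, and the C3B6F1 sons at 84.4% and 84.4% with C3B6F1 male 1 apart from them at 51.5%.

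Mtap6, which encodes a microtubule-stabilising protein, gave another picture. Its intronic window at chr7:106453501-106454000 was at 80.2%, 86.3% and 85.5% in C3 sires and at 28.7%, 20.7% and 32.5% in C3 dams. The dams stood alone at this window. B6 dams were at 27.7% ± 4.47, while the virgin F1 daughters were at 80.8% ± 3.10 and 76.2% ± 2.80, next to F1 sons at 76.8% ± 2.46 and 83.0% ± 2.20. A like pattern held at the window 11047 bp from the start site of Agfg2, which encodes an ArfGAP domain protein. There C3 sires were at 80.8% ± 3.32, C3 dams at 28.6% ± 1.40, B6 dams at 30.8% ± 4.70 and F1 daughters at 76.1% ± 2.39 and 74.2% ± 3.38. It held too at the intergenic windows nearest to AI427809 and to Inhbb, which encodes the beta B subunit of inhibins and activins. The difference between F1 sons and daughters was 1.42 points at Mtap6, 1.50 at Agfg2, -4.45 at AI427809 and 0.915 at Inhbb, against 56.7, 52.3, 54.5 and 53.5 points between C3 sires and C3 dams.

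The other windows among the 12 with the largest excess in sires, taken once per nearest gene, lay in BC089597, in an exon of Adcy1 (an adenylate cyclase gene), in Cyp2a4 (a steroid hydroxylase of female liver), in Gpr179 (an orphan receptor gene), and near 9030619P08Rik and 2610002J02Rik. Their excess in sires was between 52.4 and 65.4 points. At Adcy1 the sires were at 82.5%, 86.0% and 84.8% and the dams at 26.0%, 24.9% and 24.3%, with 6.25 points between F1 sons and daughters. Cyp2a4 has close relatives in the genome, among which reads may have been lost or shared.

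Pik3c2g, which encodes a phosphoinositide kinase of the liver, held the window with the largest excess in dams. At chr6:139801001-139801500, across an exon 8832 bp from the start site, the C3 sires were at 8.97%, 4.82% and 15.0% and the dams at 81.4%, 79.9% and 75.3%. The difference of -69.2 points (log2 ratio -5.10 ± 0.30, SE) had an adjusted p of 8.68e-12 (limma), and it was -60.6 points in B6 and -47.2 in the F1 animals.

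Elovl3, the gene of a fatty acid elongase that is higher in male liver, was low in sires next to its promoter. The window at chr19:46207001-46207500, in an intron 614 bp from the start site, was at 13.0%, 14.3% and 19.8% in C3 sires and at 79.2%, 85.2% and 82.1% in C3 dams. B6 sires were as low, at 11.0% ± 6.20, but B6 dams reached 33.7% ± 8.15 and no more. The difference of -66.5 points in C3 and -22.7 in B6 did not pass the test of the strains against each other (adjusted p = 0.440).

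**Figure D1:**
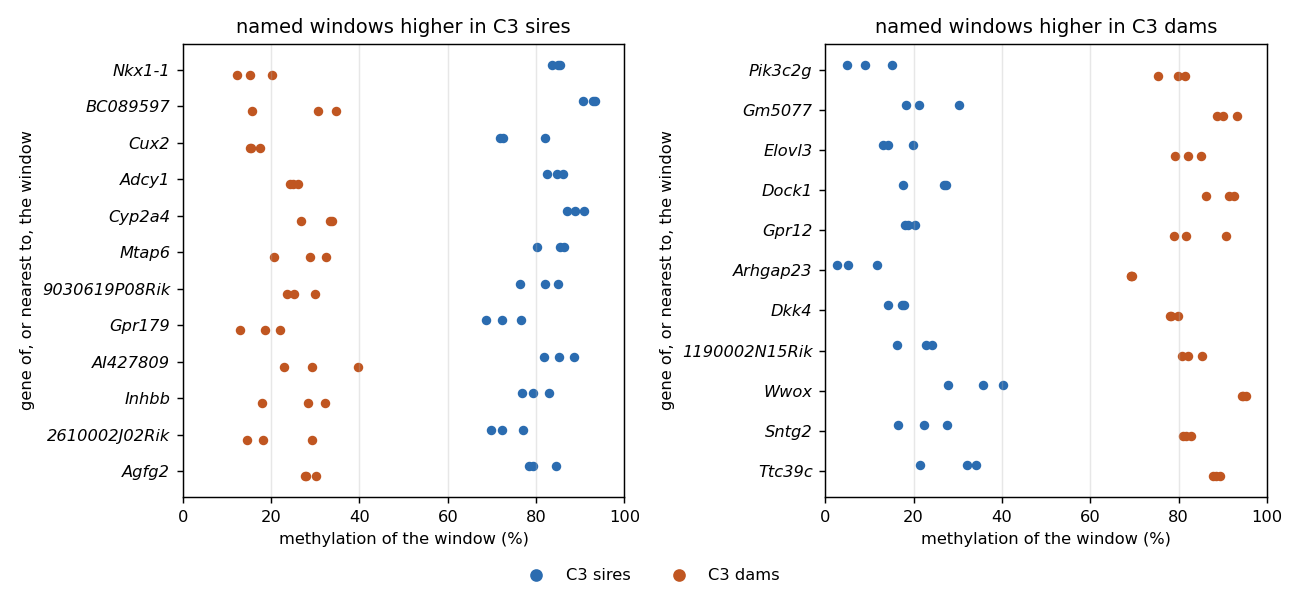
Methylation (%) of the 12 windows with the largest excess in C3 sires (left) and 11 of the 12 with the largest excess in C3 dams (right), taken once per nearest gene. Each point is 1 animal, blue for the 3 sires and orange for the 3 dams, and the windows were chosen among windows whose sires and dams do not overlap. At Nkx1-1 the sires are between 83.6 and 85.4% and the dams between 12.2 and 20.2%.

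Other windows among the 12 with the largest excess in dams lay near Gm5077, in Dock1 (an activator of Rac), near Gpr12 (an orphan receptor gene), in Arhgap23 (a GTPase-activating protein gene), in Dkk4 (a Wnt antagonist), near 1190002N15Rik, in Wwox (an oxidoreductase gene), in Sntg2 (a syntrophin gene) and in Ttc39c. Their differences were between -59.4 and -67.3 points. At Arhgap23 the sires were at 2.61%, 5.15% and 11.6% and the dams at 69.5%, 69.3% and 69.2%.

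The window near Gm5077 differed in depth as well as in methylation. The C3 sires had 56.1 counts per CpG there and the dams 13.3. Relative to the autosomal depth of each animal, sires had 3.93 times the depth of dams in C3, 3.04 times in B6, and F1 sons 3.35 times that of daughters. It was 1 of 42 tested windows with a ratio of 2 or more in C3, and the only 1 with such a ratio in all 3 sets. The part of depth in its methylation difference was not tested. Among the 2245 called windows, 2 more had a ratio of 2 or more in C3, in Myo3a and at the start of Mta1, and without these 3 the windows higher in dams numbered 1452.

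Called windows were not concentrated at promoters. Within 1 kb of a protein-coding start site lay 51 of the windows higher in sires (6.46%) and 58 of those higher in dams (3.99%), against 6.10% of all windows tested. Over 10 kb away lay 58.0% and 68.7%, against 73.7%. Introns held 48.1% and 49.5% of them and 38.0% of all windows. Most called windows were at intermediate methylation, with a mean over the C3 parents between 20 and 80% in 98.0% and 96.6%, against 27.2% of all windows, which a call of 20 points favours by its construction. A position of the deposited list of SNVs, which gives the mm9, B6 and C3 bases, was inside 24.7% and 21.1%, against 22.1%. Whether the B6 and C3 bases differ at these positions was not looked at. Depth was much the same, at a median of 27.0 and 26.9 counts per CpG against 28.2.

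At start sites, the largest excess in sires was that in Cux2, near a start inside the gene. It was followed by 1 window of A1bg, 1 of Acad9 (a mitochondrial acyl-CoA dehydrogenase family gene), the adjoining window of A1bg and 1 of BC089597. A1bg, the gene of a plasma protein that is higher in female mouse liver, was at 92.4%, 97.0% and 97.3% in C3 sires and at 46.1%, 59.3% and 46.4% in C3 dams at chr15:60752001-60752500, 325 bp from the start. It held the longest run of windows higher in sires, with 4 in a row at chr15:60750501-60752500. At Acad9, 68 bp from the start, sires were at 67.1%, 69.8% and 71.1% and dams at 20.4%, 17.7% and 28.3%. The largest excesses in dams at start sites were those of Elovl3, Cml5, Cabyr, Dkk4 and Snx29. At Dkk4, 15 bp from the start, sires were at 30.0%, 30.2% and 44.8% and dams at 78.3%, 63.9% and 71.1%. Sire 3 was the highest sire there, as it was over the windows higher in dams in general.

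Single CpGs around Cux2 and Elovl3 show where the sexes part. For Cux2 the start site used, chr5:122452353, is that of a coding transcript and lies inside the gene. The gene spans chr5:122308396-122500111 on the minus strand, and the start at its outer end was not shown in this way. Within 2500 bp of the inner start, 21 of 109 CpGs differed by at least 30 points with at least 30 counts in each sex. They lay from -1715 to 1628 bp relative to it. In the called window, the pooled level of the 5 CpGs was between 64.3 and 82.0% in sires and between 8.45 and 22.9% in dams. The CpGs at this inner start site were mostly high in both sexes. Around Elovl3, 19 of 88 CpGs differed in that way, from -580 to 2484 bp. The CpGs at its start site were near 0 in both sexes, and the 6 CpGs of the called window were between 11.1 and 30.0% in sires and between 74.1 and 100% in dams.

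**Figure D2:**
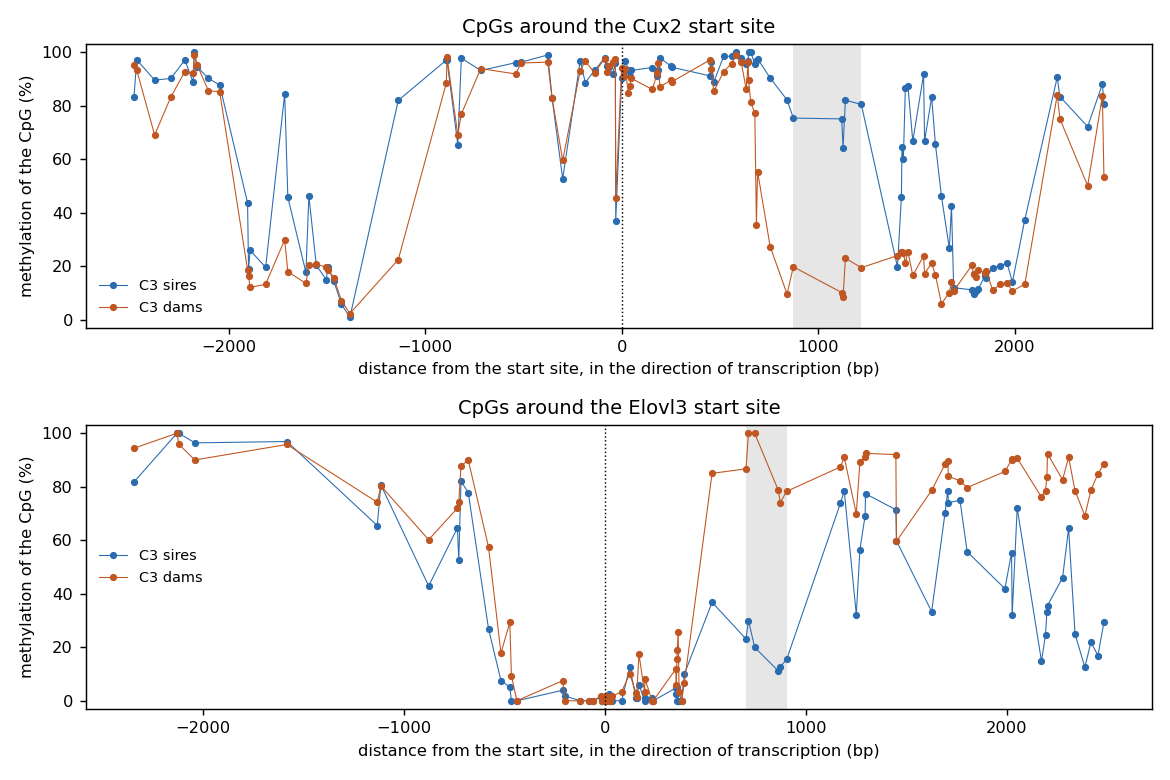
Methylation (%) of single CpGs, pooled over the 3 C3 sires (blue) and the 3 C3 dams (orange), for CpGs with at least 10 counts in each sex. They are set against distance (bp) from a start site inside Cux2 (top) and from the start site of Elovl3 (bottom). Grey marks the CpGs of the called window. In Cux2 the dams fall below the sires mostly downstream of this methylated inner start. In Elovl3 the sires fall below the dams mostly downstream of an unmethylated start.

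Genes that are known to be expressed at different levels in male and female liver held called windows at a larger share than all windows did. At nearly all of them the sex in which the gene is known to be higher was the less methylated one. The lists here and below were chosen with earlier results of these data known, so that their shares are a description and not a test. The 20 genes known to be higher in male liver held 559 tested windows with their flanks of 10 kb. Of these 46 (8.23%) were higher in dams and 1 (0.179%) was higher in sires, and 11 of the 20 genes held a window higher in dams. The median over the 559 was -2.32 points, beside 0.552 over all windows. Elovl3 and Nudt7, a peroxisomal hydrolase gene, held 6 each, Cyp2d9 and Cyp2u1, cytochrome P450 genes, held 5 each, and Egfr, the epidermal growth factor receptor gene, held 14. Gstp1, a glutathione transferase gene, was at 42.9%, 32.5% and 45.9% in sires and at 91.7%, 89.7% and 90.8% in dams at chr19:4034501-4035000, 2912 bp from its start site. At Cyp2u1, chr3:131004001-131004500, sires were at 31.3%, 34.3% and 38.9% and dams at 88.4%, 84.3% and 85.4%. At the start site of Mup7, a major urinary protein gene with near-identical copies, sires were at 32.0%, 33.9% and 36.7% and dams at 61.0%, 60.3% and 58.9%. The 1 window higher in sires was in Bcl6, which encodes the repressor of female genes in male liver. Cyp4a12a, Hsd3b5, Slco1a1 and Mup20, among the 9 genes of the list with no called window higher in dams, had no window below -13.7 points. They held only 17, 4, 11 and 4 tested windows with their flanks.

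The 25 genes known to be higher in female liver held 1389 tested windows, of which 57 (4.10%) in 15 genes were higher in sires. The exception was 1 window of the neurotrophin receptor gene Ntrk2 (0.0720%), which was higher in dams. The median over all windows of the list was 0.502 points, beside 0.552 over all windows tested. Prlr, the prolactin receptor gene, held 18 of them, Cux2 held 9 and Cyp2a4 held 8. Hamp2, a hepcidin gene, was at 81.6%, 81.5% and 82.5% in sires and at 33.9%, 39.0% and 32.3% in dams at chr7:31706501-31707000. Cyp2b13, a cytochrome P450 gene, was at 92.1%, 92.2% and 88.3% and at 50.3%, 48.4% and 42.3% at chr7:26855501-26856000. Cyp2c40, another, was at 52.3%, 60.6% and 57.0% and at 15.4%, 13.6% and 13.3% at chr19:39886001-39886500. At these windows C3 sires and C3 dams did not overlap. The same held in 788 of the 790 windows higher in sires, which the call favours, and in 9.44% of all windows. The Cyp2a, Cyp2b, Cyp2c, Cyp2d, Cyp3a and Mup genes stand in arrays of near-identical copies, so that reads may have been lost or shared there.

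**Figure D3:**
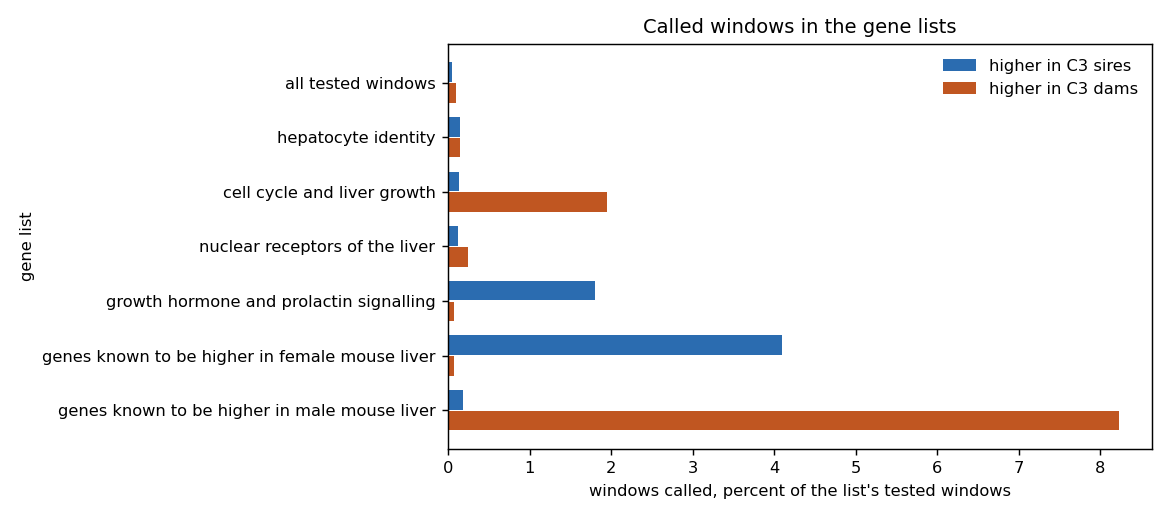
Called windows as a percentage of the windows tested in and within 10 kb of the genes of each list, blue for windows higher in C3 sires and orange for windows higher in C3 dams. Genes known to be higher in male liver reach 8.23% in the direction of dams, and genes known to be higher in female liver 4.10% in the direction of sires, beside 0.0999% and 0.0542% over all windows tested. The lists were chosen with earlier results of these data known.

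Growth hormone and prolactin signalling held 23 windows higher in sires (1.80% of 1281, beside 0.0542% of all windows) and 1 higher in dams (0.0781%, beside 0.0999%). Besides the 18 of Prlr they were in Ghr, the growth hormone receptor gene, in Socs2 and Cish, feedback inhibitors of cytokine receptors, and in Bcl6. The window of Ghr higher in sires, at chr15:3421001-3421500, lay across an exon, 144 bp from the start site of a coding transcript. The 3 C3 sires were at 80.2%, 72.8% and 81.7% and the dams at 35.9%, 42.2% and 34.4% (adjusted p = 6.29e-09, limma). B6 dams were low as well, at 48.8% ± 3.17 beside 86.6% ± 0.371 in B6 sires. F1 daughters were not. They were at 79.5%, 83.3% and 77.0% in B6C3F1 and at 82.1%, 82.0% and 79.3% in C3B6F1, among sons at 79.2% ± 3.62 and 80.4% ± 3.16. A window elsewhere in Ghr was higher in dams, with a difference of -31.5 points in C3 and -6.24 in B6. The Janus kinase and STAT genes Jak2, Stat3, Stat5a and Stat5b held no called window.

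Of the nuclear receptor genes, Esr1, the oestrogen receptor alpha gene, held 2 windows higher in dams, in an exon. At chr10:5633501-5634000 sires were at 37.8%, 23.8% and 34.2% and dams at 67.9%, 66.4% and 65.6%. The difference was -34.7 points in C3, -11.9 in B6 and -2.04 in the F1 animals. Thrb, a thyroid hormone receptor gene, and Nr3c1, the glucocorticoid receptor gene, were each higher in dams at 1 window, and Nr3c2, the mineralocorticoid receptor gene, and Ppard were each higher in sires at 1. Rora, an orphan receptor gene, held 1 window higher in sires and 2 higher in dams. The 20 genes of the list with a tested window held 3 windows higher in sires (0.125% of 2405) and 6 higher in dams (0.249%), beside 0.0542% and 0.0999% of all windows tested.

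Cell cycle and growth genes held 15 windows higher in dams (1.95% of 768, beside 0.0999% of all windows), of which 14 were the Egfr windows above and 1 was in Yap1. Their 1 window higher in sires (0.130%, beside 0.0542%) lay near Mki67, which encodes the proliferation marker Ki-67. It was at 85.9%, 92.6% and 90.9% in sires and at 53.7%, 74.8% and 68.0% in dams, with 24.3 points between the sexes in C3, 26.9 in B6 and -1.30 in the F1 animals. Genes of hepatocyte identity held 1 window higher in sires, next to Apoa1, and 1 higher in dams, in Foxa3, of 687 (0.146% each, beside 0.0542% and 0.0999%). Albumin, Hnf4a, Cebpa and Foxa1 were among those with none.

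Across the genome, 1306 of 21020 protein-coding genes with a tested window held a called one in the gene or within 10 kb. In 461 genes they were higher in sires only, in 799 higher in dams only and in 46 in both directions. Ttc39c, which encodes a tetratricopeptide repeat protein, held the most, with 56 of its 150 tested windows higher in dams. It includes the longest run, with 6 called windows in a row at chr18:12846001-12849000. The start-site window of its neighbour Cabyr was at 36.7%, 35.0% and 40.7% in C3 sires and at 74.2%, 73.2% and 79.2% in dams. Gm20388, a gene model of 6357 tested windows, held 12 higher in sires and 9 higher in dams. Prlr held 18 of 113 tested windows higher in sires. Higher in dams were 15 of 95 in Scp2, the sterol carrier protein gene, 14 of 116 in Egfr and 10 of 109 in Scara5, a ferritin receptor gene. Over all windows tested the shares were 0.0542% higher in sires and 0.0999% higher in dams. Chromosome 18 had the largest share of windows higher in dams, 0.197%, but 56 of its 104 were those of Ttc39c, and without that gene the share was 0.0910%. Chromosome 15 had the largest share higher in sires, 0.114%, but 18 of its 73 were those of Prlr. Without that gene the share was 0.0861%, below the 0.110% of chromosome 19.

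Most called windows had no called window directly beside them. Neighbours with too few CpGs or counts were not tested, and these break a run by its construction. The 790 windows higher in sires fell into 718 runs, of which 62 had 2 or more windows, and the 1455 higher in dams fell into 1313, of which 119 had 2 or more.

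The sequence of the called windows differed between directions. The motif ATTGATT, a form recognised by HNF6 and CUX2, was on either strand in 308 of the windows higher in dams (21.2%), in 37 of those higher in sires (4.68%) and in 5.75% of all windows tested. The motif ATCGAT, recognised by the same factors, was in 5.70%, 2.53% and 2.87%. The STAT motif TTCNNNGAA was in 22.5% of the windows higher in dams, 13.8% of those higher in sires and 15.7% of all. The forkhead motif TGTTTAC was in 9.48%, 7.47% and 7.05%. The nuclear receptor motif TGACCT was in 33.6%, 35.8% and 27.6%, and the E-box CANNTG in 92.1%, 97.7% and 93.8%.

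Part of the ATTGATT matches came from tandem repeats of a unit of 4 bases, in which copies of the motif overlap. Such overlapping copies were in 65 of the windows higher in dams (4.47%), in 0 of those higher in sires and in 0.133% of all windows. Of all 1932 tested windows with overlapping copies, 65 (3.36%) were called higher in dams. Of the windows that held the motif without such overlap, 243 (0.297%) were, beside 0.0999% of all windows tested. The stretches of 5 windows higher in dams are shown, because they hold the motif in tandem (Gpr12, Arhgap23 and Wwox) or singly (Sntg2 and Cml5). They are from mm9 at chr5:147409001-147409043, chr11:97304871-97304949, chr8:117598272-117598334, chr12:31026632-31026678 (minus strand) and chr6:85771919-85771965, 5′ to 3′, with the motif in capitals.
Gpr12: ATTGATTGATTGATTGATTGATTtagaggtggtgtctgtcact
Arhgap23: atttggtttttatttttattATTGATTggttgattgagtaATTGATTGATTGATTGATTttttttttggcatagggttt
Wwox: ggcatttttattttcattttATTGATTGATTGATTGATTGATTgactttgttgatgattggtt
Sntg2: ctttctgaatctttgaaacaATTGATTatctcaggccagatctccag
Cml5: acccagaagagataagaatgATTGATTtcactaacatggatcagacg

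The test of single CpGs gave a smaller set, mostly in the same places. It used the counts of the same 6 C3 animals, so that the overlap is a description and no second support. Of 18117710 CpGs tested by a beta-binomial Wald test, 7095 were higher in dams (0.0392%) and 2614 higher in sires (0.0144%) at an unadjusted p below 1e-05. They formed 196 differentially methylated regions (DMRs), with 139 higher in dams and 57 higher in sires. The median length was 268 bp and 245 bp, with 6 CpGs in both. A called window overlapped 128 of the 139 (92.1%) and 53 of the 57 (93.0%), while 220 of the 2245 called windows (9.80%) overlapped a DMR. The count of DMRs fell to 121 without sire 1. That of CpGs higher in sires fell to 1699 without dam 1. That of DMRs higher in sires fell to 36 without dam 1, and that of DMRs higher in dams to 79 without sire 1.

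The DMRs with the largest excess in sires were in Adcy1, near Nkx1-1 and near Agfg2. At Adcy1, 7 CpGs over 173 bp at chr11:7050774-7050946 were at 89.7%, 90.4% and 91.8% in sires and at 19.5%, 21.3% and 17.0% in dams. Those with the largest excess in dams were in Ugt2b36, a glucuronosyltransferase gene with close relatives, near Smurf2, a ubiquitin ligase gene, and in Pik3c2g. At Ugt2b36, 5 CpGs at chr5:87510056-87510231 were at 21.2%, 9.49% and 27.5% in sires and at 86.5%, 91.1% and 94.9% in dams. Near Smurf2, 5 CpGs at chr11:106811732-106811799 were at 25.3%, 34.6% and 18.6% in sires and at 97.3%, 96.1% and 93.0% in dams.

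The B6 parents, whose levels do not enter the C3 contrast, differed at most of the same windows in the same direction. They did enter the filter on counts and the estimate of the spread that all 24 animals shared. For windows called in a fit on the 6 C3 parents alone, the shares at least 10 points apart in B6 were 77.6% for those higher in sires and 82.6% for those higher in dams, beside 77.1% and 81.7% below. Of the 790 windows higher in C3 sires, 767 (97.1%) were higher in B6 sires by any amount, against 58.4% of all windows. At least 10 points apart were 609 (77.1%, against 0.547%), and 302 (38.2%) were called by the same rule in B6, against 0.0380%. Of the 1455 windows higher in C3 dams, 1422 (97.7%) were higher in B6 dams, against 41.6%. At least 10 points apart were 1189 (81.7%, against 0.485%), and 612 (42.1%) were called, against 0.0616%. With a minimum of 10 points in C3, the shares at least 10 points apart in B6 were 48.4% for windows higher in sires and 58.4% for those higher in dams. None (0) was called in the opposite direction in B6 in either set. Over all windows such calls made up 0.0616% and 0.0380%, so that 0 in sets of this size says little. Every B6 sire lay above every B6 dam in 654 of the 790 (82.8%, against 9.17%), and every B6 dam above every B6 sire in 1264 of the 1455 (86.9%, against 4.78%). The median difference in B6 was 17.4 and -18.3 points. The C3 values of 24.02 and -25.7 had chosen the windows and the B6 values had not, so that their sizes are not compared.

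Read the other way, 1452 windows were called in B6 (0.0997%), of which 554 were higher in B6 sires and 898 higher in B6 dams. The median difference of C3 at them was 20.95 and -25.7 points, beside 24.8 and -25.5 in B6, and 302 (54.5%) and 612 (68.2%) of them were called in C3.

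**Figure D4:**
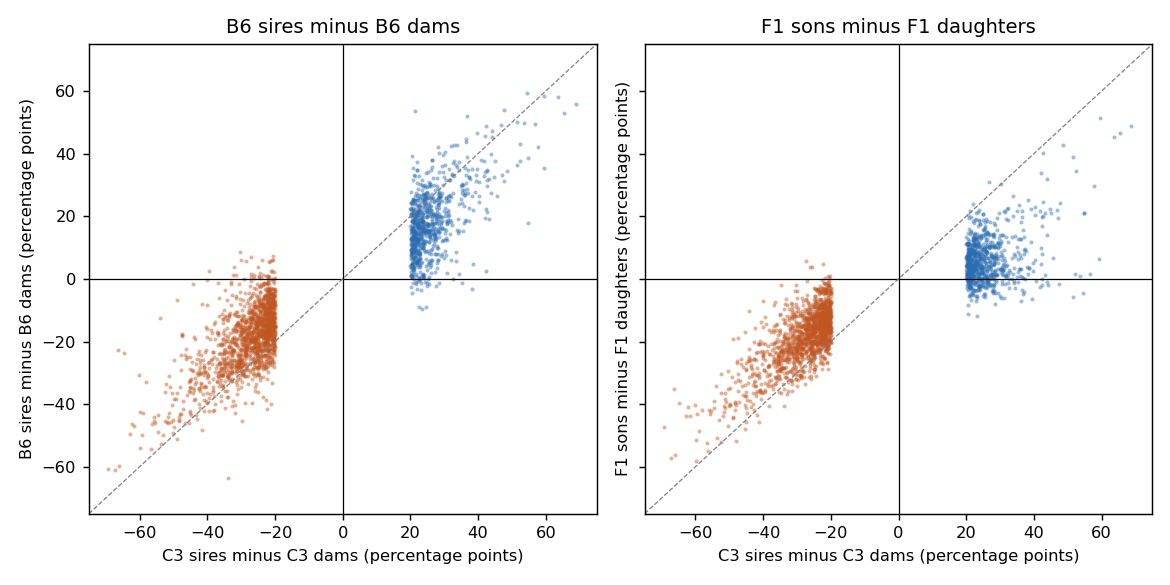
Difference between males and females in B6 parents (left) and in F1 animals (right) against that between C3 sires and C3 dams, in percentage points, for the 2245 windows called in C3; blue is higher in C3 sires, orange higher in C3 dams, and the dashed line marks equal differences. The C3 axis is empty between -20 and 20 by the call. Orange points have medians of -18.3 points in B6 and -17.6 in F1, and blue points of 17.4 in B6 and 4.94 in F1, all nearer to 0 than the C3 medians of -25.7 and 24.02 that the call set.

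The F1 animals, with 743 windows called between sons and daughters (0.0510%), separated the directions from each other. Daughters were higher by any amount at 1447 of the windows higher in C3 dams (99.5%, against 47.2%), and sons at 647 of those higher in C3 sires (81.9%, against 52.8%). At the windows higher in C3 dams, F1 daughters were higher than F1 sons by at least 10 points in 1246 (85.6%, against 0.303% of all windows), and 579 (39.8%, against 0.0474%) were called. At the windows higher in C3 sires, F1 sons were higher by at least 10 points in 206 (26.1%, against 0.0559%), and 44 (5.57%, against 0.00357%) were called. These shares rest on the 20 points asked for in C3. With a minimum of 10 points in C3, the shares at least 10 points apart in the F1 animals were 56.3% for windows higher in dams and 11.9% for those higher in sires. The difference in the direction of C3 was under 5 points, reversed ones included, in 397 (50.3%) of the latter and in 71 (4.88%) of the former. The median was -17.6 points in the former and 4.94 in the latter, although the medians in B6 were of much the same size. Without C3B6F1 male 1 the shares at 10 points were 85.8% and 27.1%, the called shares 43.2% and 6.33% and the medians -18.4 and 5.43, with 841 windows called in all.

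The daughters, not the sons, set the F1 animals apart at the windows higher in C3 sires. Over these 790 windows C3 sires were at 68.2% ± 0.240, B6 sires at 64.9% ± 0.294 and F1 sons at 65.3% ± 0.355 and 64.7% ± 1.18 (SD, n = 3 each). C3 dams were at 41.9% ± 1.25 and B6 dams at 46.8% ± 1.09. The virgin daughters were at 57.8% ± 0.143 in B6C3F1 and 59.6% ± 0.867 in C3B6F1. No daughter was as low as any dam. Over the 1455 windows higher in C3 dams, daughters were at 65.8% ± 0.963 and 67.4% ± 1.17, and dams at 71.0% ± 0.859 in C3 and 68.9% ± 0.592 in B6. No daughter reached a C3 dam, but the C3 dams had chosen these windows. The B6 dams, which had not, were between 68.55 and 69.58%, close above the highest daughter at 68.24%. The daughters differ from the dams in having had no litter and in being hybrids, and these cannot be told apart here.

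**Figure D5:**
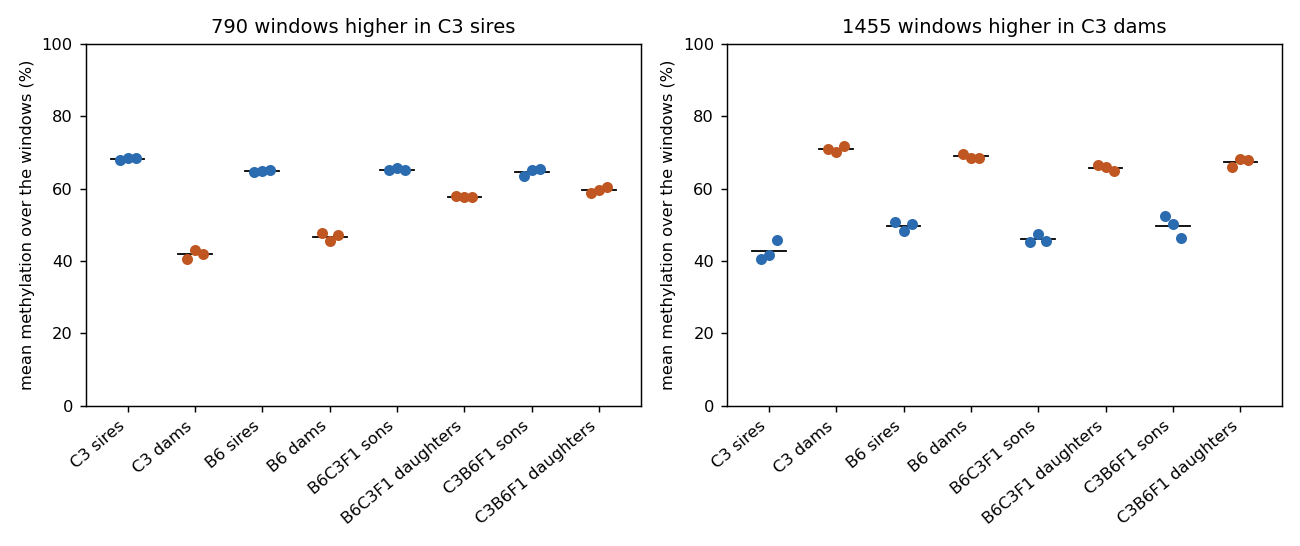
Mean methylation (%) of each of the 24 animals over the 790 windows higher in C3 sires (left) and the 1455 higher in C3 dams (right); blue points are males, orange points females, and lines group means of 3 animals. On the left the dams (40.6 to 47.7%) lie below the F1 daughters (57.7 to 60.4%), and on the right all females lie between 64.8 and 71.9%.

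The windows higher in C3 sires spread widely in the F1 animals, with sons minus daughters under 5 points, values below 0 included, in 397, from 5 to 10 points in 187 and at least 10 points in 206. Without C3B6F1 male 1 the first were 383 and the last 214. Of the 397, 283 (71.3%) were at least 10 points apart in B6, and of the 206, 188 (91.3%) were. The median distance to a start site was 21550 bp in the 397 and 7214 bp in the 206. Of the 57 windows higher in sires of genes known to be higher in female liver, 37 were among the 206 and 5 among the 397. The 18 windows of Prlr had differences between 2.11 and 21.5 points in the F1 animals and between 14.7 and 36.4 in B6.

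Few windows passed the test of a difference between the strains. The contrast of sires and dams in C3 minus that in B6 was called at 22 windows (0.00151%), of which 7 had a C3 difference above that of B6 (0.000480%) and 15 one below it (0.00103%). Of the 15, 8 had an excess of at least 20 points in C3 dams, and 6 an excess of at least 20 points in B6 sires. At an unadjusted p below 0.05 there were 78938 windows, or 5.42% of those tested. Of the 22, 13 were also called between C3 sires and C3 dams, and 11 had opposite signs in the 2 strains. Among these 11, only those in Snd1 and Uhrf1bp1l were at least 10 points apart in both strains. That in Snd1 held 68 CpGs and lay 754 bp from the start site of Lrrc4. The differences were 18.91 points in C3 and -19.33 in B6 at Snd1, and -17.51 and 23.98 at Uhrf1bp1l. The others were under 10 points in C3 or in B6, so that their signs alone do not show a reversal. The share of opposite signs over all windows was not computed. At the window near Gpr12, chr5:147409001-147409500, C3 sires were at 18.8%, 18.1% and 20.4% and C3 dams at 78.9%, 81.8% and 90.8%. B6 dams were as high, at 85.7%, 84.4% and 84.0%, but B6 sires were at 64.4%, 57.7% and 61.3%. The adjusted p of the contrast was 3.66e-02 (limma), but with 1 parent left out the call was kept in 2 of 12 fits, those without C3 dam 1 and without C3 dam 2, with an adjusted p between 1.87e-02 and 1.53e-01. The B6C3F1 sons were between the C3 and the B6 sires, at 39.5% ± 7.97. The C3B6F1 sons were at 41.9% and 31.5%, with C3B6F1 male 1 at 59.9%. At the window near 9030619P08Rik, chr15:75227501-75228000, sires were at 85.0%, 76.3% and 82.0% in C3 and 41.1%, 31.4% and 35.0% in B6, beside dams at 26.3% ± 3.35 and 18.0% ± 2.19 (adjusted p = 3.66e-02, limma). This call was kept in 3 of 12 fits with 1 parent left out, those without C3 sire 2, C3 dam 1 or B6 sire 1, with an adjusted p between 3.48e-02 and 1.81e-01. The number of such windows was unstable. It was 10, 13 and 11 without B6 dam 1, 2 or 3, 12, 9 and 4 without B6 sire 1, 2 or 3, 14 without C3 dam 3 and 4 without C3 sire 1.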

How the data were processed

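Livers were studied by whole-genome bisulfite sequencing. Per the labels and the study's methods, the authors filtered reads on mean base quality, mapped them against mm9 and phage lambda with Bismark 0.7.8 on Bowtie 0.12.8, removed duplicates with Bismark's own tool, trimmed overlapping mates, merged the libraries of each animal and kept CpGs present in both strains. They deposited methylated and unmethylated counts for each CpG and animal, with both strands together and no animals pooled. Loss of reads at near-identical copies or at strain variants could move these counts.

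Counts were summed in windows of 500 bp with at least 5 CpGs and 30 counts in each of the 24 animals. Log2 ratios of methylated to unmethylated counts (pseudocount 1) were fitted with limma 3.58.1 (trend, robust) in R 4.3.3 over 8 group means. A call needed an adjusted p (Benjamini-Hochberg) under 0.05 and group means 20 percentage points apart. Single CpGs were tested by a beta-binomial Wald test written for this work after the model of the DSS package, which was not run itself. DMRs needed 5 CpGs. Scripts were tested on simulated data. Genes and start sites are from GENCODE M1.

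Named were the 12 windows per direction with the largest difference (no overlap of animals, 10 counts per CpG, 1 per nearest gene), the 6 genes with most called windows, listed genes with a called window, the 3 largest DMRs and the 5 largest start-site windows per direction. The members, lists and rules were chosen with earlier results of these data known. The replicates are separate animals. Replicate numbers did not pair sires and dams, as same-numbered deviations correlated between -0.00106 and 0.000461. Some items among these are not reported here.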

Additional observations from a re-analysis of the deposited data

Results flagged for a closer look

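The difference between sires and dams differed between C3 and B6 at 22 windows by limma's test of the contrast itself. Of the windows named above, 2 were among them. Near Gpr12 the difference in C3 minus that in B6 was -41.2 points, and near 9030619P08Rik it was 37.0 points. Both had an adjusted p of 3.66e-02 by limma. With 1 of the 12 C3 and B6 parents left out, the number of windows fell to between 4 and 20, and the call was kept in 2 of 12 fits near Gpr12 and in 3 of 12 near 9030619P08Rik. The adjusted p was then between 1.87e-02 and 1.53e-01 and between 3.48e-02 and 1.81e-01. The direction was the same in each of these fits.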

How the results depend on the processing

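The difference over the autosomes and those of the 24 windows with the largest differences kept their direction, while counts and shares have none to turn. The 24 windows kept their call under every alternative that could test them (at 100 counts per animal, 14 could be tested). They had been chosen for large differences without overlap of animals, so that a minimum of 10 or 30 points could not remove them. The 2245 called windows became 1410 at 100 counts per animal (907 higher in dams, 503 in sires), 6439 at a minimum of 10 points (3730 and 2709) and 599 at 30 points (445 and 154). Leaving out 1 C3 parent at a time gave 2148 to 2566 (1297 to 1781 and 741 to 898). At 100 counts fewer windows were tested. With windows of at least 10 points in C3, the share at least 10 points apart was 48.4% in B6 for windows higher in sires, and 11.9% and 56.3% in the F1 animals for windows higher in sires and in dams. Single CpGs numbered 14818 at a p below 1e-04 (4337 higher in sires), and 5172 after smoothing over 250 bp (3998 in dams, 1174 in sires). They numbered 7300 to 9156 with 1 parent left out (4954 to 6998 in dams, 1699 to 2418 in sires, the lowest without dam 1). DMRs numbered 318 after smoothing (242 in dams) and 121 to 178 with 1 parent left out (79 to 131 in dams, 36 to 52 in sires). The 22 windows that differed between the strains became 40 with a pseudocount of 5, 14 in a fit on the 12 parents (without that near 9030619P08Rik, at an adjusted p of 7.11e-02) and 4 to 20 with 1 parent left out. The cause was not tested. The replicate block, for numbers that do not pair the animals, gave 2251 called windows (1462 and 789) and 21 between the strains, with an adjusted p of 5.27e-02 near Gpr12 and 5.61e-02 near 9030619P08Rik. The fits without C3B6F1 male 1, on the 6 B6 parents alone and of B6 values at windows called on the 6 C3 parents alone were chosen after seeing the data. Depth limits windows near 30 counts, where 1 animal's level is coarse, and 3 animals a group limit small differences.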
